A study of Homo sapiens with 18 samples.

Results

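The G1 step of the cell cycle is governed by a small set of genes, and 10 of them are described here: the D-type cyclins CCND1, CCND2 and CCND3, the cyclin-dependent kinases CDK4 and CDK6, the INK4 inhibitors CDKN2C and CDKN2D, the CIP/KIP inhibitors CDKN1A and CDKN1B, and RB1, the retinoblastoma protein gene. The genes were chosen by name and not by a rule on their peaks, but with earlier results of these data known. They come from 20037 protein-coding genes of the RefSeq annotation of GRCh38 on the autosomes, X and Y. A peak was assigned to a gene when it overlapped the gene itself or the 10 kb on either side. The 10 windows held 52 of the 35622 regions that remain when the 4 single-antibody peak lists of the series are merged.

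The study profiled the AML1-ETO fusion protein by CUT&RUN, in which an antibody directs a nuclease to its target and the DNA cut out around the bound sites is sequenced. All 18 libraries came from Kasumi-1, a t(8;21) acute myeloid leukaemia cell line, in a derivative that expresses AML1-ETO with a Flag tag, so controls and knockdown cells share the tagged fusion. Cells were transduced, sorted as viable and GFP-positive 3 days later and taken either as control or with miR-130a knockdown (3 libraries per condition and antibody). The antibodies were anti-ETO, anti-Flag and mouse IgG, and peak lists of anti-ETO and anti-Flag were analysed here. The labels do not say what the control cells were transduced with, or whether the tagged line was 1 clone. A peak list holds no expression values, so the identity of the cells was not checked against marker genes.

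D-type cyclins bind and activate CDK4 and CDK6, and the active kinases phosphorylate the RB1 protein, which then releases E2F transcription factors and lets cells enter S phase. INK4 proteins block CDK4 and CDK6 directly, while CIP/KIP proteins bind whole cyclin-CDK complexes. AML1-ETO keeps the DNA-binding domain of RUNX1 and, through its ETO part, recruits corepressors, and CCND2 has been described as a gene through which the fusion acts on the growth of t(8;21) cells.

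The lists give the position of each peak on hg38 (GRCh38) and nothing else: no height, score or value per library. There was 1 list per antibody and condition, with 14264 to 25961 peaks per list, so no spread between libraries can be given, no test between conditions could be made, and the depth behind each call is unknown. A call that is present in one list and missing from another is a difference between those lists. Beyond the 4 single-antibody lists, the authors deposited 5 derived ones. For each condition a list holds the sites where anti-ETO and anti-Flag coincide, called dual-antibody peaks here. The remaining lists divide those sites into shared ones and ones unique to control or to knockdown.

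All 10 genes had a peak in at least 1 of the 4 single-antibody lists, beside 58.2% of all protein-coding genes. A control anti-ETO peak was found at 8 of the 10 genes (47.4% of all protein-coding genes) and a knockdown anti-ETO peak at 9 (53.6%). A control anti-Flag peak was found at all 10 genes (50% of all protein-coding genes, 10021 of 20037) and a knockdown anti-Flag peak at 8 (42.1%). Both antibodies called a common peak at 8 genes in control (43.7%) and at 8 genes in knockdown (39.3%). These were the same 8 genes, all but CDKN1A and RB1, and each of them also had a peak in the shared list (35.0% of all protein-coding genes). Since dual-antibody peaks are built from the single-antibody lists, each of the 8 also had a peak in every single-antibody list (37.2% of all protein-coding genes). This is no separate result. None of the 10 genes held a dual-antibody peak in control only (7.64% of all protein-coding genes) or in knockdown only (3.25%). With derived lists rebuilt from single-antibody lists of equal length, CCND1 had one in control only, with the wider 50% of each list CDKN1B did, and with the gene body alone CDKN2C had one in knockdown only. By gene length, a shared peak was present at all 3 genes of up to 10 kb, CDK4, CDKN1B and CDKN2D (33.9% of protein-coding genes of that length, and 52.0% had a peak in any single-antibody list). It was present at 3 of the 4 genes of 10 to 50 kb (38.2%, with 63.6% for any list) and at 2 of the 3 of over 100 kb (29.4%, with 53.7%).

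**Figure D1:**
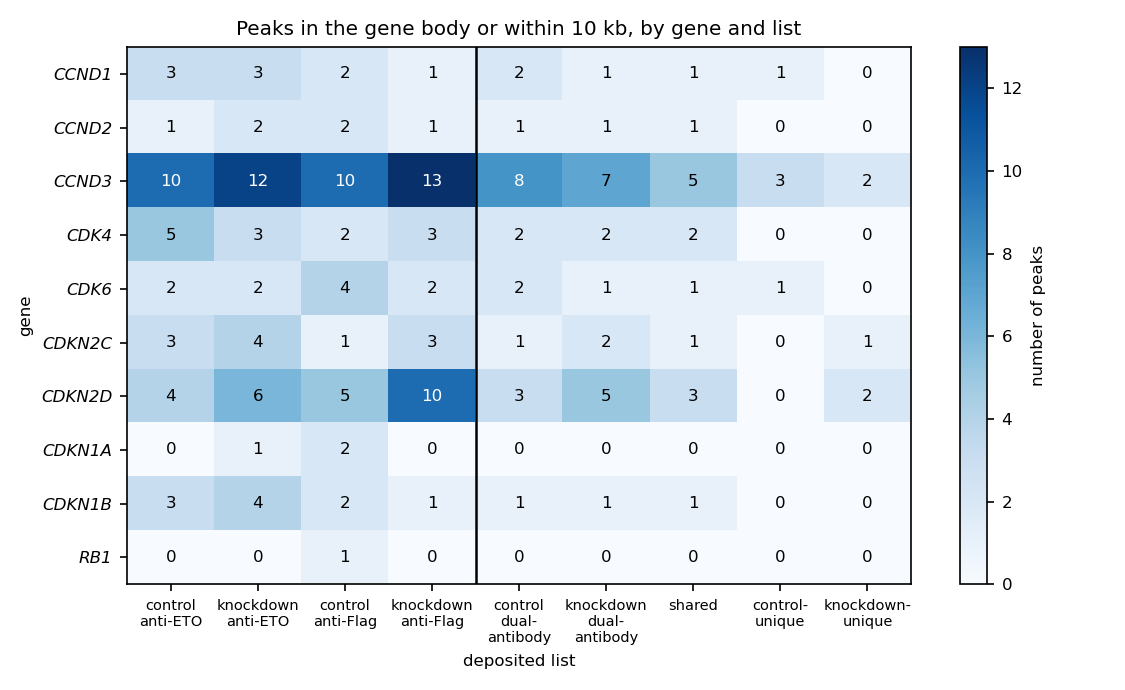
Number of peaks in the body or within 10 kb of each of the 10 genes (rows) in each of the 9 deposited lists (columns; the line separates the 4 single-antibody lists from the 5 lists derived by the authors). CCND3 and CDKN2D hold the most peaks, up to 13 and 10 in the knockdown anti-Flag list, while RB1 has 1 call in all and CDKN1A has 3, none of them in a derived list.

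Promoters that differ in which lists called them are shown first, as the 250 bases before an annotated start, for 6 of the genes. The RefSeq promoter table of GRCh38.p14 held 13 promoter windows for 8 of the genes (250 bases before a start and 50 after it). CCND1 and CCND2 had no entry, and the RB1 entry was for a start in the last part of the gene. A peak of at least 1 list overlapped 9 of the 13 windows, beside 37.9% of the windows of all protein-coding genes. Control anti-ETO overlapped 6 of the 13 (28.6% of all windows), knockdown anti-ETO 8 (34.6%), control anti-Flag 4 (28.7%) and knockdown anti-Flag 3 (21.1%). The CDKN2D promoter and the most downstream of the 3 CCND3 promoters were called in all 4 lists (18.1% of all windows), those of CDK4 and CDKN1B by anti-ETO alone in both conditions, that of CDKN1A by control anti-Flag alone, and the second CDKN2C promoter by anti-ETO in both conditions and by anti-Flag in knockdown (0.644%). The middle CCND3 promoter was called in every list but knockdown anti-Flag (6.12%). Each sequence runs 5′ to 3′ along the gene and ends just before the start, and capitals mark matches, on either strand, to the motifs named after the sequences. The CDKN2C sequence holds no match.
CDKN2D (chr19:10568980-10569229, minus strand): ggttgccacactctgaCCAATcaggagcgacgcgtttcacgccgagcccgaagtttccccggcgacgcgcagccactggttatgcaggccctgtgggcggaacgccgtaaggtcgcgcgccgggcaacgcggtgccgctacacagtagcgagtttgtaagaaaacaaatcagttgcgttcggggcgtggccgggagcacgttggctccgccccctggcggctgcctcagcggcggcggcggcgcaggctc
CCND3 downstream promoter (chr6:41939206-41939455, minus strand): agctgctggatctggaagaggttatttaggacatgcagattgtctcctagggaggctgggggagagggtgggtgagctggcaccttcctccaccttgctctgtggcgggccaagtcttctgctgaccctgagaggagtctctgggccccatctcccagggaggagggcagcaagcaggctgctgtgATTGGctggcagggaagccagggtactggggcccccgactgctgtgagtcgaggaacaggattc
CDK4 (chr12:57752311-57752560, minus strand): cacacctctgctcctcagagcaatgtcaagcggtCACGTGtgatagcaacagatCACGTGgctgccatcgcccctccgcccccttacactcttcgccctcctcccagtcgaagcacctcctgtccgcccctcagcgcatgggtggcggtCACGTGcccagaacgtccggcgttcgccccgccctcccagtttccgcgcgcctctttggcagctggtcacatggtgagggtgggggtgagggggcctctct
CDKN1B (chr12:12717118-12717367, plus strand): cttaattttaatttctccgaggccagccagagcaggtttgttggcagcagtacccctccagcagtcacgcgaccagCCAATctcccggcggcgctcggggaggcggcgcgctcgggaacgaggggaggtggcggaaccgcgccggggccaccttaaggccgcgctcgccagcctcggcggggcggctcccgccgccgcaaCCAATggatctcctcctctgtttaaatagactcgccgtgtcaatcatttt
CDKN1A (chr6:36678464-36678713, plus strand): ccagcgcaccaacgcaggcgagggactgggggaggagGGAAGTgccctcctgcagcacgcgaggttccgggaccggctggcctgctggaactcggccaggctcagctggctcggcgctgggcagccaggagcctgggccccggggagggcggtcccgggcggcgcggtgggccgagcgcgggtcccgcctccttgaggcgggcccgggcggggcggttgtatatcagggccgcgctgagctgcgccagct
CDKN2C second promoter (chr1:50968456-50968705, plus strand): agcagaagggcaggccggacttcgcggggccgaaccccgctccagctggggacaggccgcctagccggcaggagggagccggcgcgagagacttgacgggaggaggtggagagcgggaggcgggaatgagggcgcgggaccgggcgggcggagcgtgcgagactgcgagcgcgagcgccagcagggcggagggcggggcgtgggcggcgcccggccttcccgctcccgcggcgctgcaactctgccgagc

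The RUNX core motif TGTGGT, searched on both strands, was in 0 of the 13 member windows, and in 11.3% of the 22197 windows of all protein-coding genes. With TGCGGT as a further form, the counts were again 0 of 13, beside 19.0% of all windows. The ETS-type motif GGAAGT was in 2 member windows, that of CDKN1A and the most upstream one of CCND3 (23.9% of all windows), and the AP-1 motif TGANTCA was in the RB1 window (6.15%). A further pair of motifs was chosen after the sequences had been read, so their counts cannot be weighed against the shares of all windows. CACGTG, the E-box bound by MYC-family factors, occurred 3 times in the CDK4 window and was in 4 member windows (8.34% of all windows). Among these, a CDK6 window and the most downstream CDKN2C window met no peak of any list. CCAAT, the box bound by NF-Y, was in 5 member windows (34.7%), among them those of CDKN2D and CDKN1B. CCAAT does not overlap the other motifs in these windows. These matches describe the letters of the windows only. The sequences of the peaks were not searched, since no genome sequence was at hand, and many peaks lie outside the windows. Whether the peaks at these genes hold the RUNX core motif is therefore not known.

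Among the D-type cyclins, all 3 genes held a region called in every list and a shared peak (35.0% of all protein-coding genes had a shared peak). CCND1 had none with the wider 50% of each list, or with derived lists rebuilt from lists of equal length. CCND2, on chromosome 12, had its main call just outside the gene at its lower-coordinate end (the tables used here give no strand for CCND1 and CCND2). The merged region, 4272123 to 4273478, was 1356 bp wide, wider than 90.6% of all merged regions. It ended 283 bp from the gene and lay within 1 kb of the antisense gene CCND2-AS1. Its calls were 1355 bp long in the control anti-ETO list, 1023 bp in knockdown anti-ETO (in 2 intervals), 1066 bp in control anti-Flag and 516 bp in knockdown anti-Flag. Thus all 4 lists called the site, and the shortest call was that of knockdown anti-Flag. The only other region at CCND2 was a 174-bp call of control anti-Flag next to it.

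CCND1, on chromosome 11, had 3 regions of 368 to 501 bp. The one called in all 4 lists, 69643047 to 69643414, lay inside the gene, 2.07 kb from its lower-coordinate end. Its calls were 248 bp (control anti-ETO), 366 bp (knockdown anti-ETO), 346 bp (control anti-Flag) and 345 bp (knockdown anti-Flag). A neighbouring region, 69642425 to 69642814, was called by anti-ETO in both conditions and by anti-Flag in neither. The remaining region, outside the gene, carried the authors' control-unique peak 69638852 to 69639351: anti-ETO called it in control (180 bp) and in knockdown (470 bp), anti-Flag in control (479 bp) and not in knockdown. The anti-ETO call was thus longer in the condition in which the anti-Flag call was missing. Anti-ETO calls were also longer in knockdown in 81.3% of the 8835 regions of the series called in all 4 lists. Of the other control-unique peaks with this pattern, those of CCND3 had longer anti-ETO calls in knockdown. That of CDK6 had a shorter one (614 bp, against 905 bp in control).

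CCND3, on chromosome 6, stood out within the set by number: it had 17 of the 52 regions, with 10, 12, 10 and 13 peaks in the control anti-ETO, knockdown anti-ETO, control anti-Flag and knockdown anti-Flag lists. The gene is 115103 bp long, and its window gave 1.26 regions per 10 kb. CDKN2D (4.0), CDK4 (2.03) and CDKN1B (2) had more per 10 kb, and RB1 had 0.0505. Its 3 widest regions lay at the end of the gene, around its 2 downstream promoters, with a 345-bp region beside them. The other regions were spread over the gene and its upstream start. Regions 41934636 to 41937114, 41937347 to 41940248 and 41940796 to 41942260 were 2479, 2902 and 1465 bp wide, and each was called in all 4 lists. In the widest of these the calls were 1760 bp (control anti-ETO, in 2 intervals), 2588 bp (knockdown anti-ETO), 2865 bp (control anti-Flag) and 2686 bp (knockdown anti-Flag). It covered the start of the most downstream promoter, whose sequence is given above. The start of the most upstream promoter, more than 100 kb away, was covered by a 388-bp region called by knockdown anti-ETO alone (42048578 to 42048965), as were 4.29% of all promoter windows.

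CCND3 was the only gene of the set with both control-unique and knockdown-unique peaks, 3 and 2 of them. Both kinds were found at 890 of the 20037 protein-coding genes. The control-unique peaks 42044167 to 42044642 and 42045344 to 42046312 lay in regions centred 4.29 and 2.85 kb inside the gene from the upstream promoter. Both had anti-ETO calls in control (182 and 720 bp) and in knockdown (469 and 1071 bp), and anti-Flag calls in control only (475 and 750 bp). The remaining control-unique peak, 42017151 to 42017733, was called in all 4 single-antibody lists, with 561 and 548 bp in control (anti-ETO and anti-Flag) and 481 and 265 bp in knockdown. The knockdown calls of both antibodies overlapped each other by 98 bp there, and the site became shared when the derived lists were rebuilt with an overlap of at least 1 bp. Of the knockdown-unique peaks, 41942352 to 41942696 had no control call of either antibody. That peak lay beside region 41940796 to 41942260, which all 4 lists called. The other knockdown-unique peak, 42050298 to 42051170, lay 262 bp outside the gene and next to TAF8. It had an anti-ETO call in control (401 bp) as well as in knockdown (873 bp), with anti-Flag in knockdown only (533 bp).

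The kinase genes differed in where their calls lay: 3 of the 5 regions at CDK4 were beside its neighbours, and those of CDK6 were deep inside the gene. At CDK4, on chromosome 12, the start was covered by region 57751944 to 57752341, called by anti-ETO in control (363 bp) and in knockdown (311 bp) and by anti-Flag in neither. A pattern of anti-ETO calls alone in both conditions was found at 2.07% of all promoter windows. The 2 shared peaks in the CDK4 window, 57744186 to 57744854 and 57741281 to 57742510, lay 2872 and 5216 bp beyond the gene, at TSPAN31 and AGAP2. At the first of these regions the calls were 449, 570, 668 and 417 bp in the control anti-ETO, knockdown anti-ETO, control anti-Flag and knockdown anti-Flag lists. At the second they were 1049, 1224, 836 and 282 bp, so that the knockdown anti-Flag call was again the shortest.

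CDK6, on chromosome 7, is the longest gene of the set (231653 bp) and had 4 regions, all inside the gene and none within 1 kb of a start. Neither of its 2 promoter windows met a peak of any list, as was the case for 62.1% of all windows. The shared peak, 92754960 to 92756023, was centred 81.08 kb from the gene start, with calls of 578 bp (control anti-ETO), 1032 bp (knockdown anti-ETO), 892 bp (control anti-Flag) and 352 bp (knockdown anti-Flag). The control-unique peak, 92639305 to 92640285, was centred 196.78 kb from the start. It was called by anti-ETO in control (905 bp) and in knockdown (614 bp), and by anti-Flag in control (758 bp, in 2 intervals) and not in knockdown. The other regions were a 282-bp call of control anti-Flag and a 166-bp call of knockdown anti-Flag.

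Of the INK4 inhibitors, CDKN2D had the most continuous coverage for its size. The gene is 2520 bp long, on chromosome 19, and regions 10567798 to 10570259 (2462 bp) and 10564501 to 10567522 (3022 bp) together covered its start and most of its body. The 3022-bp region was wider than 98.9% of all merged regions and lay within 1 kb of the neighbouring gene KRI1. At the start, calls were 2064 bp (control anti-ETO), 2160 bp (knockdown anti-ETO), 1988 bp (control anti-Flag) and 2200 bp (knockdown anti-Flag), so the 4 lists gave much the same length. In the 3022-bp region they were 2230, 2950, 2969 and 2644 bp in the same order. A further shared peak, 10572161 to 10573064, lay 3181 bp outside the gene, near AP1M2.

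The CDKN2D window also held 5 regions called in knockdown lists only, 4 of them at KRI1 and 1 at AP1M2, all in the flank. The knockdown-unique peak 10560581 to 10561118 was among them, with anti-ETO (538 bp) and anti-Flag (389 bp) calls in knockdown and no control call. The other knockdown-unique peak, 10555448 to 10557051, was 1604 bp wide, lay 9353 bp from the gene at KRI1, and was called in control by anti-Flag alone (179 bp). Both fell outside a flank of 5 kb, so at that distance CDKN2D had 3 shared peaks and 0 knockdown-unique peaks. The number of knockdown anti-Flag peaks in its window was 10, against 5 in control, and of anti-ETO peaks 6 against 4.

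CDKN2C, on chromosome 1, had a shared peak just upstream of its first start and a knockdown-unique peak at its second. The shared peak, 50958822 to 50960236, was 1415 bp wide and ended 508 bp from the gene, next to FAF1. Its calls were 1211 bp (control anti-ETO, in 2 intervals), 1253 bp (knockdown anti-ETO), 1369 bp (control anti-Flag) and 833 bp (knockdown anti-Flag, in 2 intervals). The knockdown-unique peak, 50967995 to 50968925, covered the second promoter start. There anti-ETO had a 261-bp call in control and a 931-bp call in knockdown. Anti-Flag had no call in control and a 165-bp call in knockdown, as short as the narrowest merged region of the series. With derived lists rebuilt from lists of equal length, CDKN2C had 0 knockdown-unique peaks. Anti-ETO thus called the site in both conditions and anti-Flag in knockdown only, whereas at 4 control-unique peaks of CCND1, CCND3 and CDK6 anti-Flag called in control only. Knockdown anti-ETO alone also called 2 further regions of CDKN2C, of 192 and 467 bp.

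The CIP/KIP inhibitors had calls at their starts without a peak of both antibodies there. At CDKN1B, on chromosome 12, region 12717029 to 12717459 covered the start and was called by anti-ETO in control (243 bp) and knockdown (431 bp) and by anti-Flag in neither, the same pattern as at the CDK4 start. A 326-bp region closer to GPR19 was called by control anti-ETO alone. The shared peak in the CDKN1B window, 12725172 to 12725875, lay 2802 bp beyond the end of the gene, at APOLD1, with calls of 552, 487, 358 and 508 bp in the control anti-ETO, knockdown anti-ETO, control anti-Flag and knockdown anti-Flag lists. Beside it, region 12725977 to 12727050 had a 1074-bp call of knockdown anti-ETO and a 190-bp call of control anti-Flag.

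CDKN1A, on chromosome 6, had no peak in the control anti-ETO or the knockdown anti-Flag list. Region 36678400 to 36678631 overlapped its promoter window and was called by control anti-Flag alone (232 bp), as were 1.13% of all promoter windows. Region 36680545 to 36680901 lay 2.01 kb beyond that start and was called by control anti-Flag (357 bp) and knockdown anti-ETO (204 bp). No site at CDKN1A was therefore called by both antibodies in either condition. RB1, on chromosome 13, had the fewest calls: a single 326-bp control anti-Flag peak, 48303296 to 48303621, which ended 129 bp before the gene start, next to RB1-DT. Within its 178140 bp body no list had a peak.

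**Figure D2:**
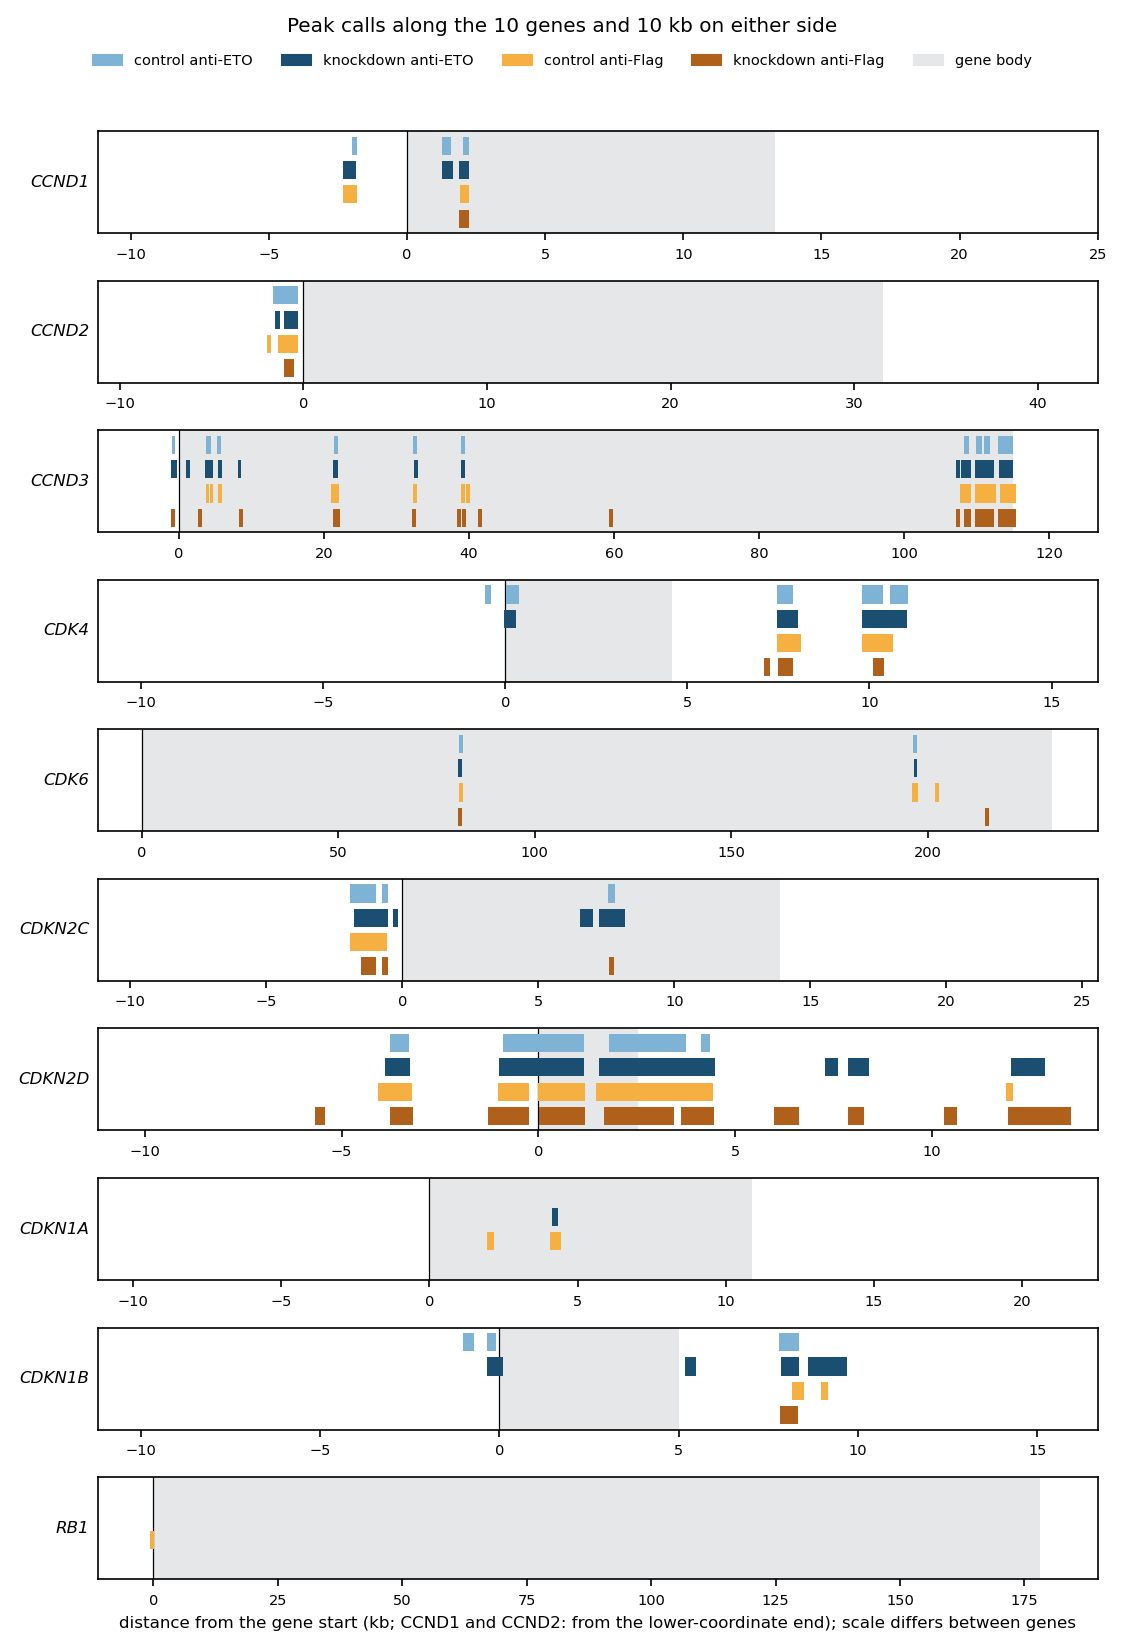
Position of the calls of the 4 single-antibody lists along each gene and the 10 kb on either side, as distance in kb from the annotated gene start in the direction of transcription (CCND1 and CCND2: from the lower-coordinate end), with the gene body in grey. The horizontal scale differs between genes and calls too short to see are drawn at a minimum width; the stacked calls of all 4 lists at CDKN2D and at the end of CCND3 contrast with the empty body of RB1 and the pairs of blue anti-ETO calls at the starts of CDK4 and CDKN1B.

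Across the set, 16 of the 52 regions (30.8%) were called in all 4 lists, beside 24.8% of all merged regions. Shares of the whole series take in regions at any distance from a gene, whereas the 52 lie in or within 10 kb of 1. CCND3 and CDKN2D gave 17 and 9 of the 52. Regions called by knockdown anti-Flag alone made up 9 of 52 (17.3%, beside 22.3%), and those called by knockdown anti-ETO alone 5 (9.62%, beside 10.3%). Regions with anti-ETO calls only, in either condition or both, were 10 of 52 (19.2%, beside 13.4%), and those with anti-Flag calls only were 14 (26.9%, beside 36.3%). In knockdown lists only, 17 regions were called (32.7%, beside 37.8%), and in control lists only 7 (13.5%, beside 13.4%). Regions of 1 kb or wider made up 13 of 52 (25.0%, beside 16.1%). The distribution over lists thus followed that of the whole series closely for control-only and knockdown-only calls, and no test was made of the differences.

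By place, 30 of the 52 regions overlapped a gene body and 22 lay in a flank. A start of the gene (for CCND1 and CCND2, either end) was within 1 kb of the centre of 15 regions at 8 genes, all but CCND1 and CDK6, and 7 regions at 5 genes covered a start. Of the 16 regions called in all 4 lists, 4 were centred within 1 kb of a start, at CCND2, CCND3 and CDKN2D, and 6 lay in a flank. Another protein-coding gene lay within 1 kb of 18 regions, 16 of them in a flank, which limits the assignment of those peaks to the named gene. None of these region counts by place was made over the whole series, so whether they are usual is not known. Exons and introns were not used here, and a peak said to lie at or near a neighbouring gene was within 1 kb of it. Counting the gene body alone, 4 genes had a shared peak, CCND1, CCND3, CDK6 and CDKN2D, beside 26.8% of all protein-coding genes. The same 4 had a control dual-antibody peak there (33.1%), and with CDKN2C 5 had a knockdown one (30.4%). The shared peaks of CCND2, CDK4, CDKN1B and CDKN2C were outside the gene body.

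In the comparison of conditions, the windows held 15 shared, 5 control-unique and 5 knockdown-unique peaks. A control-unique peak was found at 3 genes, CCND1, CCND3 and CDK6 (16.9% of all protein-coding genes). A knockdown-unique peak was found at 3, CCND3, CDKN2C and CDKN2D (18.4%). All 5 control-unique peaks had an anti-ETO call in knockdown: 4 had anti-ETO alone, as did 74.7% of the whole control-unique list, and 1 had both antibodies (1.99% of that list). Of the 5 knockdown-unique peaks, 2 had a control call of anti-ETO alone (5.83% of the whole list), 1 of anti-Flag alone (55.1%) and 2 of neither (38.1%). Median widths were 1276 bp for the shared peaks at these genes, 583 bp for the control-unique and 873 bp for the knockdown-unique ones, beside 1047, 470 and 517 bp in the whole lists.

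Call length was the only graded quantity in the lists. In the 16 regions called everywhere, the anti-ETO calls were longer in knockdown than in control in 12 regions, as in 81.3% of the 8835 such regions of the series. Median anti-ETO lengths were 645 bp (control) and 1028 bp (knockdown), beside 643 and 899 bp over the series. The anti-Flag calls were longer in knockdown in 4 of the 16 regions, as in 30.2% of those of the series, with medians of 962 and 557 bp, beside 800 and 629 bp. The exceptions for anti-ETO were the regions of CCND2 and CDKN1B and a pair at CCND3. Those for anti-Flag were at CDKN1B, at the CDKN2D start and a pair at CCND3. Both directions were therefore those of the whole series, and nothing about these genes is read from them.

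**Figure D3:**
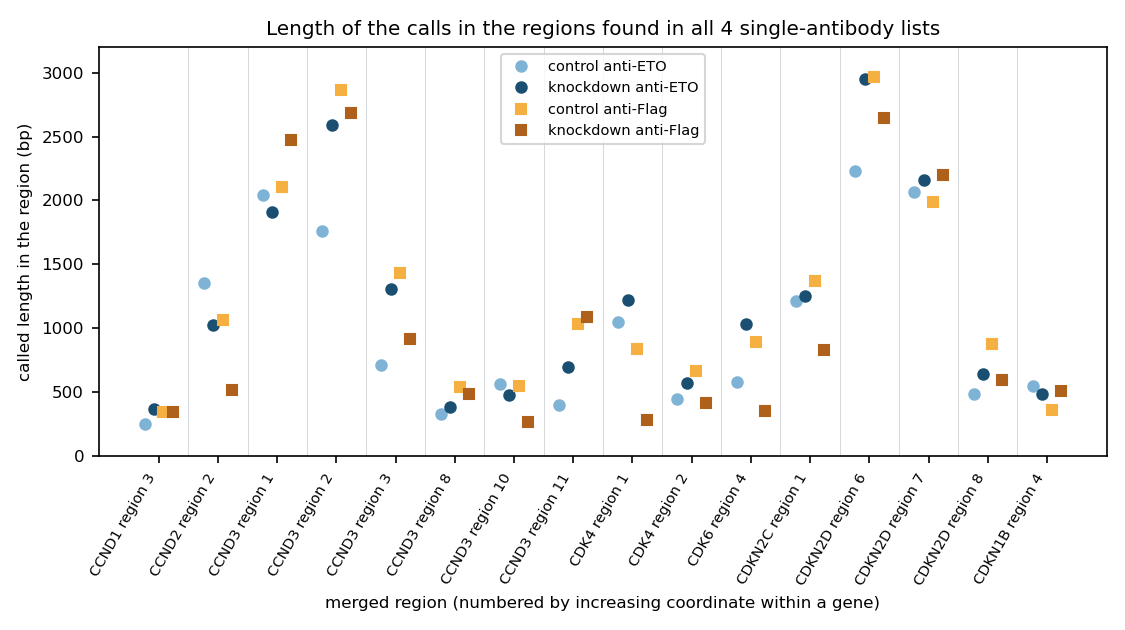
Summed length in bp (linear axis from 0) of the calls of each single-antibody list in the 16 merged regions of the set that all 4 lists called, ordered by gene; 1 point is 1 list, and there are no replicates. At CCND3 regions 1 and 2 and CDKN2D regions 6 and 7 the calls of every list sum to at least 1760 bp, while at CDK4 region 1 and CDK6 region 4 the knockdown anti-Flag calls of 282 and 352 bp are the shortest of the 4.

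The number of peaks in the windows was 31 for control anti-ETO and 37 for knockdown anti-ETO, a ratio of 1.19, beside 1.58 for the whole lists. For anti-Flag it was 31 and 34, a ratio of 1.10, beside 1.12. The genes did not share a direction: CDK4 had 5 anti-ETO peaks in control and 3 in knockdown, CCND1 had 3 in each, and CDKN2D had 4 and 6. For anti-Flag, CDK6 had 4 and 2 and CDKN2D 5 and 10.

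The other genes of the G1 step, a list of 28 that includes the E-type cyclins, CDK2, the E2F and DP factors and the remaining inhibitors, had a shared peak at 12 genes (42.9%). A control-unique peak was found at 7 of them (25.0%, beside 16.9% of all protein-coding genes). A knockdown-unique peak was found at 8 (28.6%, beside 18.4%). Among 25 genes of the S, G2 and M phases, 14 (56.0%) had a shared peak, 5 (20.0%) a control-unique and 7 (28.0%) a knockdown-unique one. In both lists the share with a shared peak was above the 35.0% of all protein-coding genes and below the 8 of 10 of the set described here, with no test made. CCNE1, an E-type cyclin, and CDC25A, a phosphatase that activates CDK2, each had 1 knockdown-unique peak and no control dual-antibody peak. With CDK3, 3 of the 28 genes had a dual-antibody peak in knockdown only (3.25% of all protein-coding genes). CDK2 itself had 2 control-unique and 1 knockdown-unique peak, CDK3 had 3 knockdown-unique ones, and CDKN1C, the last of the CIP/KIP inhibitors, had 3 shared and 1 knockdown-unique. CCNH, a cyclin of the CDK-activating kinase, had 1 control-unique peak.

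Of the later genes, BUB1, a spindle checkpoint kinase gene, had 1 unique peak in each condition, and CDC20, CDC25B and CDC6 had 1 knockdown-unique peak each. Some further genes were picked out after their values were seen. CDKN2A and CDKN2B, the other INK4 genes, had no peak in any list, while CDKN2C and CDKN2D had peaks. A lack of any peak was common, found at 7 of the 28 other G1 genes and at 8369 of the 20037 protein-coding genes. E2F5 had 3 dual-antibody peaks in control, all control-unique, and none in knockdown, where its 3 anti-ETO peaks had no anti-Flag peak beside them. With CCNH, 2 of the 28 other G1 genes had a dual-antibody peak in control only (7.64% of all protein-coding genes).

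**Figure D4:**
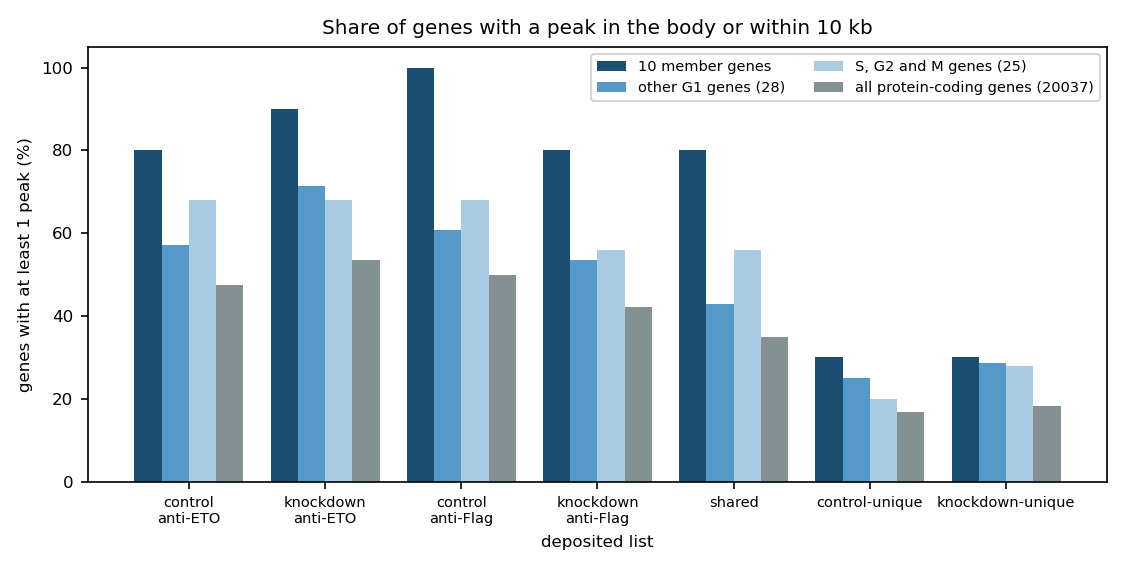
Percentage of genes with at least 1 peak in the body or within 10 kb (bars, from 0) for the 10 genes described here, the 28 other G1 genes, the 25 S, G2 and M genes and all 20037 protein-coding genes, by list. For the shared list the bars stand at 80.0%, 42.9%, 56.0% and 35.0%; they are shares of genes in 1 list each and carry no error.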

How the data were processed

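CUT&RUN peaks of 18 libraries in 6 groups, taken from the sample titles, were analysed as 9 deposited BED lists without header, score or value per library. The deposited values are interval positions only, on no measured scale. Per the submitters' processing notes, fastp 0.19.5, Bowtie2 2.3.5, MACS2 2.2.5 and HOMER 4.8 and the builds hg38 and sacCer3 were used, with no role, order or threshold given; use of IgG and handling of replicates are not given in the sources used here. Per the labels' protocols, 200000 cells per condition, fragments of 150 to 400 bp and about 40 M reads of 75 bp were planned. Since a list's length depends on threshold and depth, so does which peaks are unique.

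Gene positions, promoters and sequences came from RefSeq tables of GRCh38.p14, the same build; all 10 genes matched by symbol, 8 of them in the promoter table. Lists were merged where intervals shared 1 bp or more, in Python 3.11.15 (numpy 2.4.6, pandas 2.3.3). Bedtools 2.31.1 gave the same count for 90 of 90 gene and list pairs, and 9 of 9 checks on simulated intervals gave the planted answer. Positions count from 1. No test was run, since each group has 1 list. All 10 genes are named; of the other lists, the first 10 by symbol with a unique peak are named, and for each gene its unique peaks, widest region and region nearest to a start. Other regions were named after their values were seen. The genes, lists and rules were chosen with earlier results of these data known. Alternatives were other flanks, the wider 50% of each list, peak centres, rebuilt derived lists and other distances.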

Additional observations from a re-analysis of the deposited data

How the results depend on the processing

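No paired analysis was possible because the lists carry no replicate and no result comes from a test. The flank mattered most. With the gene body alone, the number of genes with a peak was 5 for control anti-Flag, 5 for knockdown anti-Flag, 4 for control dual-antibody, 5 for knockdown dual-antibody and 4 for shared peaks, with 9 shared peaks, 2 knockdown-unique peaks and 10 regions in all 4 lists. With a flank of 5 kb there were 3 knockdown-unique peaks. With 50 kb, 5 genes had a control-unique peak, and the windows held 9 control-unique and 11 knockdown-unique peaks, 8 of the latter in the CDKN2D window. Keeping the wider 50% of each list left 8 regions in all 4 lists, and requiring each call to overlap the widest by 50% of both left 7. Derived lists rebuilt from single-antibody lists of equal length gave 3 knockdown-unique peaks: CDKN2C had 0 in place of 1 and CCND3 1 in place of 2, and CDK4 gained 1 control-unique peak. Regions near a start numbered 23 within 2500 bp. The remaining 68 of the 84 alternative values were within 1.5 times of the reported count, and the counts of genes with a shared peak were 6 to 8 outside the gene-body setting. Keeping the wider 50% left CCND1 and CDKN1B without a shared peak, and equal lengths left CCND1 without one. Leaving out replicates could not be run, and a call shows presence only at an unknown threshold and depth.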
